A study of Mus musculus with 40 samples.

Results

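The 9 genes described here, Gbp2, Gbp3, Gbp4, Gbp5, Gbp7, Igtp, Irgm1, Irgm2 and Iigp1, encode interferon-gamma-induced GTPases, and they were taken by name, not by their values, from the 54513 rows that each of 3 deposited expression tables holds. All 9 names were found in all 3 tables. RNA had been sequenced from CD11b+ cells, the microglia, monocytes and macrophages that carry this integrin subunit, FACS-sorted from the brain hemispheres of male mice with an experimental glioma. The values are RPKM, read counts scaled to the length of the gene and the size of the library. Levels can thus be compared between genes as well as between samples of 1 table. They cannot strictly be compared between tables, because whether the tables were normalized together is unknown.

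The first table covers the murine glioma line GL261, carrying tdTomato and luciferase, implanted in the striatum of C57BL/6 mice and taken at 21 days post-implantation (DPI). Its groups of 3 samples each were naïve mice without a tumor and tumor-bearing mice that received vehicle (water), the integrin-blocking peptide 7aaRGD or the control peptide 7aaRAE, in which the RGD motif is replaced, through an osmotic pump into the tumor. The second covers 28 DPI, with 4 vehicle samples, 4 samples of 7aaRGD, 3 of an antibody against the immune checkpoint PD-1 and 3 of 7aaRGD with anti-PD-1. By the study's methods those mice carried GL261 tumors, all had the pump, and those without anti-PD-1 received control IgG. The third covers U87-MG, a human glioblastoma line, in athymic nude mice, which lack mature T cells, at 21 DPI, with 3 samples each of vehicle, 7aaRGD and 7aaRAE. A sample was a pool of 2 animals at 21 DPI and 1 animal at 28 DPI. Another 5 of the 40 samples in the labels, 3 naïve nude mice and 1 sample each of anti-PD-1 and the combination, were not analysed here.

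The 28 DPI samples are labelled as nude mice in GEO, whereas the study's methods give C57BL/6 mice for GL261. H2-Ea-ps, an MHC class II gene that C57BL/6 mice do not transcribe, was at most 0.0976 RPKM in the 28 DPI table and at most 0.0554 RPKM in the GL261 table of 21 DPI, but between 22.5 and 374 RPKM in the U87-MG table. In this gene the 28 DPI samples were thus like the C57BL/6 samples of 21 DPI and unlike the nude mice with U87-MG. Because the label and the methods differ, the 28 DPI groups are called by treatment and time in the text, not by strain. Itgam, which encodes CD11b, was between 51.2 and 195 RPKM in all 35 samples, and between 9330 and 9823 protein-coding genes per sample reached 1 RPKM. The number of reads per sample is unknown, because RPKM values do not carry it.

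Guanylate-binding proteins (GBPs) and immunity-related GTPases (IRGs) are among the most strongly induced proteins of an IFN-γ response. IFN-γ binds its receptor and activates the kinases JAK1 and JAK2, and target genes respond through the GAS motif and, by way of IRF1, through the ISRE motif, through which type I interferons act too. The proteins assemble on membranes that enclose parasites and bacteria and expose them to autophagy and inflammasomes. Gbp2 coats vacuoles and cytosolic bacteria and helps AIM2 to be triggered, Gbp5 is linked to the NLRP3 inflammasome, and Gbp7 to the oxidase that kills ingested bacteria. Among the IRGs, Iigp1 (Irga6) is an effector that loads onto vacuoles, whereas Irgm1, Irgm2 and Igtp (Irgm3) are regulators that sit on the cell's own membranes and keep the effectors off them.

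The genes lie on several chromosomes of the mouse genome (GRCm38/mm10, GENCODE annotation). Gbp5 (chr3:142493978-142522344), Gbp7 (chr3:142530342-142550149), Gbp3 (chr3:142560026-142573209) and Gbp2 (chr3:142620602-142638008) lie in this order on the plus strand of chromosome 3, and Gbp4 (chr5:105115767-105139586, minus strand) on chromosome 5. Igtp (chr11:58199556-58207591) and Irgm2 (chr11:58199618-58222782) overlap on the plus strand of chromosome 11, where Irgm1 (chr11:48861968-48871683, minus strand) lies too. The libraries were strand-specific and counted by strand, so only same-strand overlaps can share reads, and those were Igtp with Irgm2, Gbp4 with Gbp8 and Gbp9, and Gbp7 with the pseudogene Gm43802. Of all stretches of 50 bases in the members' transcripts, the share that another gene's transcripts also hold was 12.7% for Gbp7, 11.8% for Igtp, 7.77% for Irgm2 and 7.70% for Gbp4, and between 0.310% and 3.75% for the other 5. The levels of Igtp against Irgm2, and of Gbp7 and Gbp4, are uncertain to that extent, since reads were counted only above a mapping quality minimum.

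The promoters are shown because members of both families moved together in the data, and because GAS and ISRE are the motifs of the pathway named for them. For 7 of the 9 members (all but Gbp4 and Iigp1) RefSeq (GRCm38.p6) gave 8 windows of 300 bases, from 250 before to 50 after an annotated start. They were searched on both strands for GAS, TTCNNNGAA, which reads the same on both, and for an ISRE core, GAAANNGAAA; neighbouring ISRE cores can overlap each other. Printed here are 4 windows, 5′ to 3′ on the gene's strand with the matches in capitals. Gbp2 is the member with the highest level in the GL261 tumor groups. Gbp5 has the largest fold change with anti-PD-1 against vehicle at 28 DPI, and Igtp and Irgm2 are the pair that overlaps in the GENCODE annotation. The Irgm2 window belongs to a RefSeq start past the end of Igtp (base 58207591), not to the GENCODE start at base 58199618. The Gbp5 window likewise lies past its GENCODE start at base 142493978.
Gbp2 (chr3:142620413-142620712, plus strand): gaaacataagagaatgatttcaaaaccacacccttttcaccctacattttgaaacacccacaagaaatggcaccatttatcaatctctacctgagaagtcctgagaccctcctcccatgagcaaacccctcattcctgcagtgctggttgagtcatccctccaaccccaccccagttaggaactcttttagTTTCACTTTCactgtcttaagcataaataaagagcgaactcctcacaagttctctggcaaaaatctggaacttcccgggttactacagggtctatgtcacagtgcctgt
Gbp5 (chr3:142496684-142496983, plus strand): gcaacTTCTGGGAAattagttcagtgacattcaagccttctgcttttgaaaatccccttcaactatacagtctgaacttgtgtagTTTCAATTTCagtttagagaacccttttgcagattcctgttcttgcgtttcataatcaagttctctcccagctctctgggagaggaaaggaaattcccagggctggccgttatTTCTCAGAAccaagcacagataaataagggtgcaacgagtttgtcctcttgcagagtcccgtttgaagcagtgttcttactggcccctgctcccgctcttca
Igtp (chr11:58199306-58199605, plus strand): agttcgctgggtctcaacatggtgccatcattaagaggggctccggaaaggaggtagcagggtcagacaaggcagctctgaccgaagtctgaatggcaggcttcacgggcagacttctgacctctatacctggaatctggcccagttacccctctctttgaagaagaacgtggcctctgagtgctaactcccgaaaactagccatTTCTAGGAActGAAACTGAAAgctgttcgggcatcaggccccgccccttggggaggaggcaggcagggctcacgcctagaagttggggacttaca
Irgm2 (chr11:58214727-58215026, plus strand): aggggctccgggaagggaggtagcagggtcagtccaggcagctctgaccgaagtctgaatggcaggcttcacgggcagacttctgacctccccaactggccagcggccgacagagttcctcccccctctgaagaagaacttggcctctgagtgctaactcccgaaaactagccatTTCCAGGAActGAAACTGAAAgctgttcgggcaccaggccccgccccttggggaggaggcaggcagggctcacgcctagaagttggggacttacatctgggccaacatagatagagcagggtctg

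Gbp2 held 1 ISRE core, from base -59 to base -50 counted from its start, and no GAS. Gbp5 held an ISRE core farther out and 2 GAS matches, of which the nearer lay from base -52 to base -44. Igtp and Irgm2 held a GAS followed after 2 bases by an ISRE core, the GAS being TTCTAGGAA in Igtp and TTCCAGGAA in Irgm2. The longest identical run of their windows, 61 bases, lay after both motifs and reached the end of the Igtp window. An ISRE core was found in 7 of the 7 members, against 3.44% of all 32851 promoter windows, and a GAS in 4 of 7 (Gbp5, Gbp7, Igtp and Irgm2), against 8.30%. Both were found in those 4 members and in 0.454% of all windows. For Gbp3, which has 2 annotated starts, the window of 1 start held no match. Among other GTPases of the families, 5 of 8 windows held an ISRE core and 3 a GAS. A match describes letters in a window and was not related to binding, which was not measured.

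**Figure D1:**
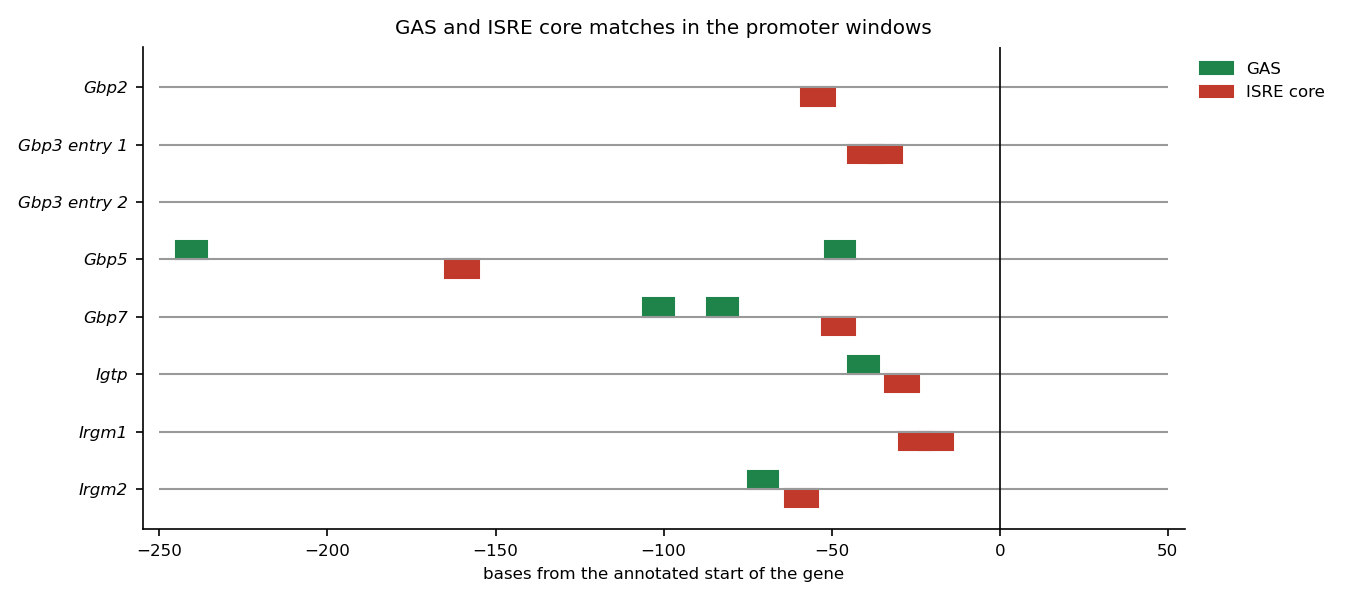
Matches to the GAS motif (green, above the line) and the ISRE core (red, below the line) in the 8 promoter windows, with the distance in bases from the annotated start on the x axis and 1 line per window. The ISRE cores of Gbp2, Gbp3, Gbp7, Igtp, Irgm1 and Irgm2 lie between base -64 and the start, and that of Gbp5 lies from base -165 to base -156.

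The first question was how the GTPases stood in CD11b+ cells of a glioma-bearing hemisphere against those of a naïve brain. All 9 were higher in vehicle-treated GL261 tumors at 21 DPI than in naïve mice, and Gbp2, under 5 RPKM in the naïve brain, gained most with 1 or 5 RPKM added. Gbp2, which coats pathogen vacuoles, was 4.35, 4.42 and 4.68 RPKM in the 3 naïve samples and 381, 709.7 and 708 RPKM in the 3 vehicle samples, a ratio of means of 134. Its log2 fold change of RPKM + 1 was 6.72 (SE 0.22, limma adjusted p = 6.2e-08). The groups lie far apart, with the first vehicle sample well below the other pair. By the study's methods the tumor-bearing mice also had surgery and a pump that infused into the tumor. In this comparison these cannot be told apart from the tumor.

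The effector Iigp1, a gene of chromosome 18, was listed at 0.157, 0.321 and 0.319 RPKM in naïve mice and at 28.9, 52.9 and 44.2 RPKM with vehicle. Gbp4, a GBP of the chromosome 5 cluster, was listed at 0.0852, 0.0888 and 0.0320 RPKM in naïve mice and at 13.1, 28.2 and 24.5 RPKM with vehicle. Both were thus near 0 in naïve mice, and the size of their log2 fold changes depended on the constant added. These were 5.05 for Iigp1 and 4.36 for Gbp4 with 1 RPKM added, 6.84 and 6.98 with 0.1 RPKM, and 3.12 and 2.36 with 5 RPKM. With 5 RPKM added, Gbp4 ranked below Gbp3, Irgm1 and Gbp5, whose log2 fold changes were then 2.99, 2.599 and 2.59.

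Of the other GBPs, Gbp3 was at 6.75 ± 0.480 RPKM in naïve mice and at 89.9 ± 21.9 RPKM with vehicle (mean ± SD, n = 3 in each group), higher by 3.52 on the log2 scale. Gbp5, linked to the NLRP3 inflammasome, was at 4.20 ± 0.371 and 51.5 ± 13.4 RPKM, higher by 3.30. Gbp7, linked to the phagocyte oxidase, was at 9.09 ± 0.382 and 47.7 ± 8.49 RPKM, higher by 2.26. For none of these genes did the groups overlap.

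Among the regulators of the IRG family were the members with the highest levels in the naïve brain, Irgm2 and Igtp. Irgm2 was at 34.0, 34.0 and 34.2 RPKM in naïve mice and at 43.1, 62.4 and 70.9 RPKM with vehicle, the smallest of the 9 log2 fold changes (0.74, SE 0.16, limma adjusted p = 0.00264). Igtp was at 28.8, 31.8 and 29.8 RPKM in naïve mice and at 110.0, 156 and 178 RPKM with vehicle, a log2 fold change of 2.23. Irgm1 was at 8.50 ± 0.842 and 78.2 ± 18.6 RPKM, higher by 3.03 on the log2 scale. The ranges of both groups were separate for each of the 3 regulators.

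All 9 members passed the threshold as higher, in a comparison in which 34.6% of the 9731 genes tested were higher and 48.2% were lower, so that a change as such was common among all genes. For 9 of 9 members every vehicle sample lay above every naïve sample, as for 35.6% of all genes. The members' median log2 fold change was 3.30, and that of all genes tested was -0.14. The make-up of the family differed as well: Irgm2 and Igtp held 34.9% and 30.9% of the members' summed level of 97.6 RPKM in naïve mice, while Gbp2 held 52.7% of the sum of 1137 RPKM with vehicle. The order of levels in the naïve brain began with Irgm2, Igtp and Gbp7. The range of Gbp7 was not separate from that of Irgm1, nor that of Gbp2 from that of Gbp5. Within samples Gbp7 was above Irgm1 in 3 of 3 and Gbp2 above Gbp5 in 2 of 3. With vehicle it began with Gbp2, Igtp and Gbp3, whose ranges were separate from each other. From Gbp3 down, through Irgm1, Irgm2, Gbp5 and Gbp7, to Iigp1, no neighbours had separate ranges. Within samples these neighbours kept their order in 3 of 3, except Gbp5 above Gbp7 in 2 of 3.

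The make-up of the sorted cells moved with this difference. The sum of 7 microglia markers was between 15284 and 15840 RPKM in naïve mice and between 1268 and 1846 RPKM with vehicle, and all 7 were lower with vehicle. The sum of 7 monocyte and macrophage markers was between 15.3 and 16.4 RPKM in naïve mice, where Vcan and F10 were under 0.5 RPKM in every sample, and between 891 and 1301 RPKM with vehicle, and all 7 were higher. The part of these cells in the difference of the GTPases was not tested, and in bulk samples fewer cells of a type and less RNA per cell cannot be told apart. The vehicle sample with 381 RPKM of Gbp2 held 891 RPKM of the monocyte and macrophage markers, and the others held 1301 and 1300.0 RPKM. The peptide groups did not repeat this order. The third 7aaRAE sample, lowest of its group for 8 of 9 members, had 1386 RPKM of these markers, above 1334 and 1130 RPKM. The third 7aaRGD sample, lowest for 9 of 9, had 1242 RPKM, between 1065 and 1339 RPKM. Microglia markers were highest in each of these low samples within its group, with sums of 1846 (vehicle), 2535 (7aaRGD) and 2080 RPKM (7aaRAE). The next vehicle sample was close, having 1816 RPKM.

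**Figure D2:**
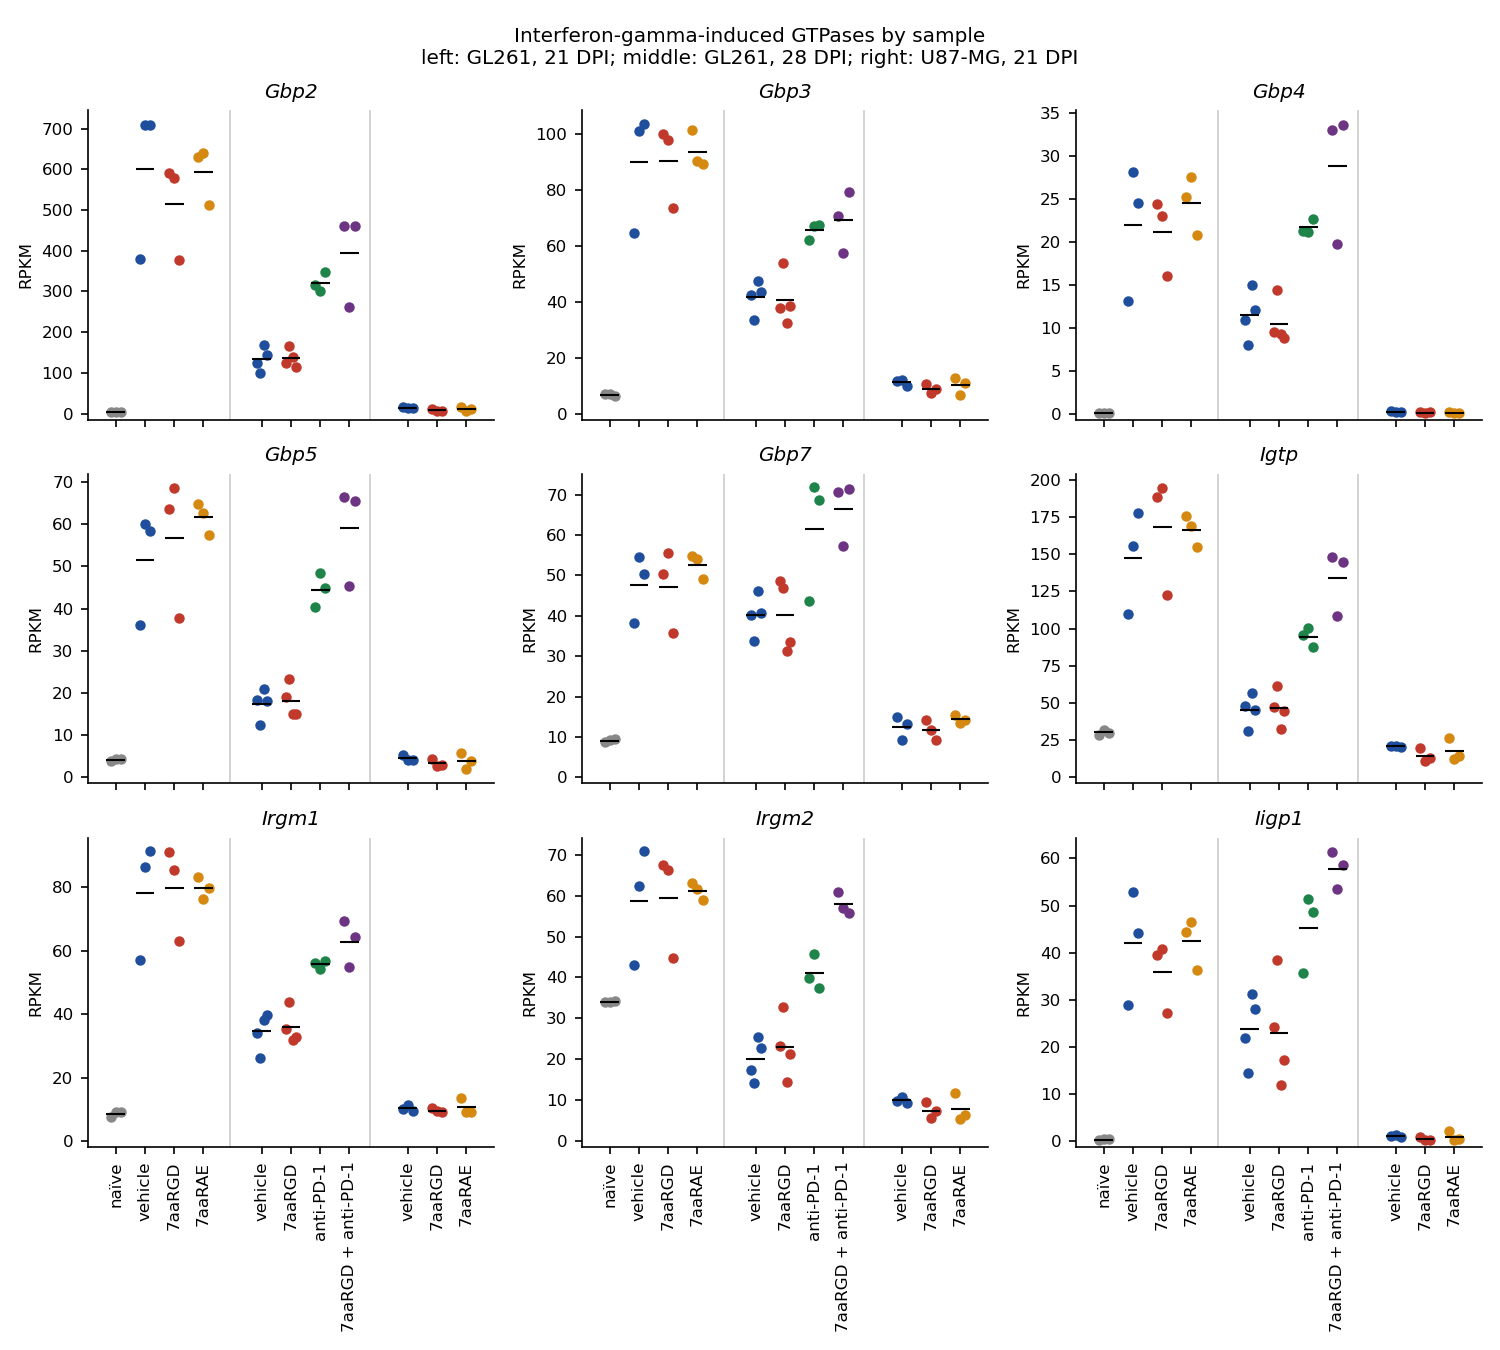
Level of each of the 9 GTPases (RPKM, y axis) in all 35 samples, 1 point per sample with a bar at the group mean, for the GL261 groups at 21 DPI (left), at 28 DPI (middle) and the U87-MG groups (right), whose levels are not strictly comparable between tables. All 9 are higher with vehicle than in naïve mice at 21 DPI and have a higher mean with anti-PD-1 than with vehicle at 28 DPI, while the 7aaRGD and vehicle groups overlap in both GL261 tables.

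**Figure D3:**
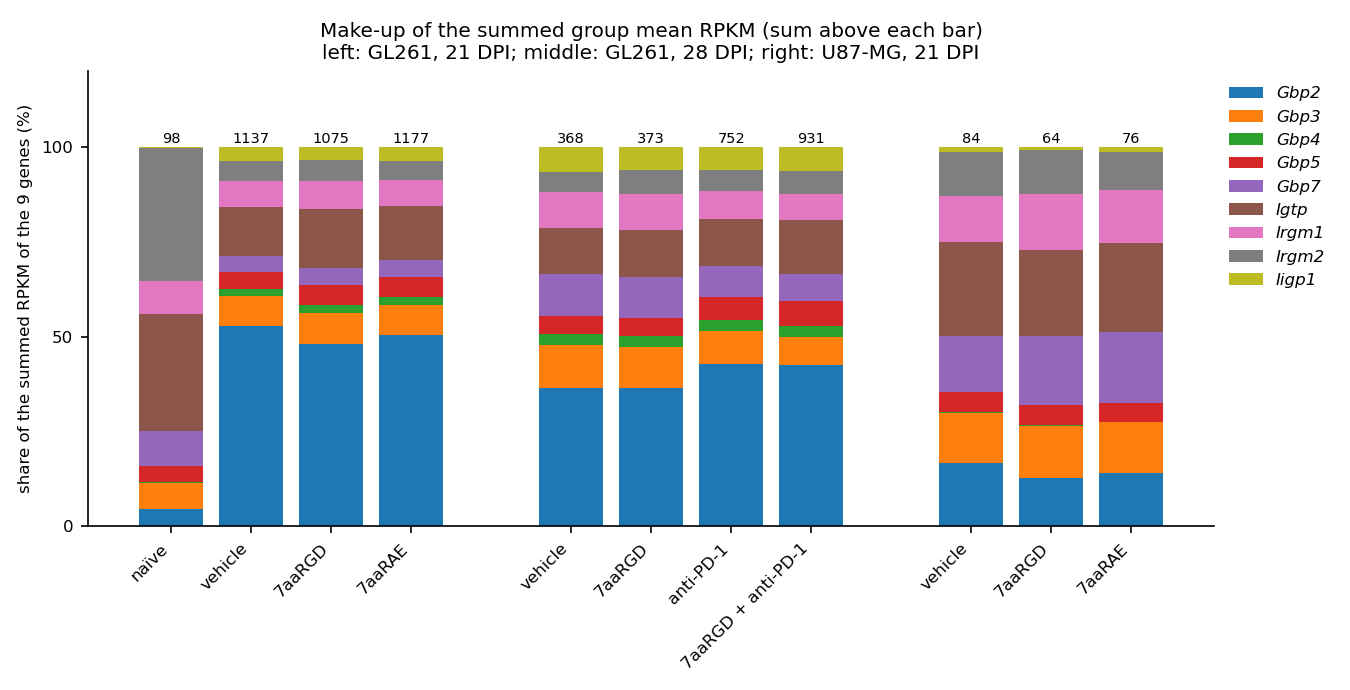
Share of each GTPase (%, y axis) in the summed group mean RPKM of the 9 genes, with the sum in RPKM above each bar. Irgm2 and Igtp make up most of the sum in naïve mice, Gbp2 holds the largest share in each GL261 tumor group, and Igtp does in each U87-MG group.

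Other genes of the pathway were taken from lists of textbook members. Of 13 other GBP and IRG genes that could be tested, 11 were higher and 0 lower with vehicle (median log2 fold change 2.88), led by Ifi47, an IRG, which was 1.56 ± 0.353 RPKM in naïve mice and 159.95 ± 28.6 RPKM with vehicle. Of 9 genes of IFN-γ signalling, 5 were higher and 3 lower, and Irf1 was 20.9 ± 1.07 RPKM in naïve mice and 134 ± 34.6 RPKM with vehicle. Of other IFN-γ targets 15 of 15 tested were higher, as were 15 of 15 genes of the type I interferon response. Of 14 partner genes of autophagy and inflammasomes 6 were higher and 6 lower, where 34.6% of all genes were higher and 48.2% lower. Ifng itself, which T and NK cells make, was at most 0.188 RPKM in naïve mice and 0.129, 1.44 and 0.699 RPKM with vehicle.

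Among the tumor-bearing groups at 21 DPI, the next question was whether 7aaRGD changed the GTPases, with 7aaRAE as the control peptide. No member passed the threshold in either peptide group. Gbp2 was 591, 578 and 377 RPKM with 7aaRGD and 630.2, 640.0 and 513 RPKM with 7aaRAE, against 381, 709.7 and 708 RPKM with vehicle. Igtp was 188, 195 and 122 RPKM with 7aaRGD and 176, 169 and 155 RPKM with 7aaRAE, against 110.0, 156 and 178 RPKM with vehicle. The groups overlapped for all 9 members in the 3 comparisons between these groups.

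Against vehicle, 0 of 9 members passed with 7aaRGD, where 0.138% of all 9444 genes tested passed as higher and 0.0106% as lower. At an unadjusted limma p under 0.05 there were 0 members, and 879 genes higher and 401 lower. The members had 5 positive and 4 negative differences between -0.20 for Iigp1 and 0.19 for Igtp on the log2 scale. The 95% intervals over the 9 members reached from -0.76 to 0.66, so a change of up to these sizes in single members is within the error. With 7aaRAE all 9 differences were positive, between 0.04 and 0.29 with intervals from -0.53 to 0.82, and 0 passed at either threshold, as did 0% of all genes in both directions at the adjusted one (313 were higher and 288 lower at an unadjusted p under 0.05). That direction rested on the first vehicle sample: without it 3 of 9 differences were positive, and the median of 0.09 ranged from -0.12 to 0.23 when 1 sample at a time was left out. Between 7aaRGD and 7aaRAE all 9 were negative, between -0.25 and -0.01, and 0 passed, with intervals from -0.79 to 0.44. The median of that difference was -0.17 and ranged from -0.28 to 0.08 when 1 sample at a time was left out. These 3 comparisons share their groups, so their directions are not separate findings.

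Within groups, the 9 genes moved together from sample to sample. For 9 of 9 members the first vehicle sample had the lowest level of the 3, with a summed level of 772 RPKM against 1311 and 1329.7 RPKM. The third 7aaRGD sample was the lowest for 9 of 9 members (798 RPKM against 1217 and 1210.3 RPKM), and the third 7aaRAE sample for 8 of 9. The coefficient of variation over the vehicle samples had a median of 24.3% over the members and 7.12% over 9393 genes, and over the naïve mice 5.16% (the 7 members of at least 1 RPKM) and 5.60%. It was 21.6% and 7.17% with 7aaRGD, but 6.39% and 7.04% with 7aaRAE. Over the 9 tumor-bearing samples, the pairwise Pearson correlation of members on the log2 scale was between 0.73 and 0.98 (median 0.91 over 36 pairs), a description of samples that share treatment groups and a sorted cell mix.

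At 28 DPI the question was how the GTPases stood with 7aaRGD, with anti-PD-1 and with both. The members' sum with vehicle was 368 RPKM at 28 DPI and 1137 RPKM at 21 DPI, a difference between tables that are not strictly comparable, and it was not tested. With 7aaRGD alone no member differed from vehicle past the threshold. Gbp2 was 123, 99.5, 169 and 143 RPKM with vehicle and 124, 166, 139.8 and 113 RPKM with 7aaRGD, and Irgm2 was 17.4, 14.1, 25.4 and 22.7 RPKM against 23.2, 32.8, 14.5 and 21.4 RPKM. The groups overlapped for all 9 members, and within them 9 of 9 members were lowest in the second vehicle sample and 8 of 9 were highest in the second 7aaRGD sample. Of the 9, 0 passed the threshold, where 0.123% of the 9740 genes tested passed as higher and 0.524% as lower. At an unadjusted limma p under 0.05 there were 0 members, and 782 genes higher and 641 lower, and the 95% intervals reached from -0.75 to 0.62 on the log2 scale.

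With anti-PD-1, all 9 members were higher than with vehicle. Gbp2 was 316, 301 and 348 RPKM, so that the lowest sample lay above the highest vehicle sample of 169 RPKM, a log2 fold change of 1.28 (SE 0.21, limma adjusted p = 0.00109). Gbp5 was 40.4, 48.4 and 44.8 RPKM with anti-PD-1 and 18.2, 12.5, 20.9 and 18.1 RPKM with vehicle, the largest log2 fold change among the members (1.32, SE 0.19, limma adjusted p = 0.000498). Gbp4 was 21.3, 21.1 and 22.7 RPKM against 11.0, 7.99, 15.0 and 12.04 RPKM. In these 3 GBPs the anti-PD-1 samples stood close together and clear of vehicle.

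The IRG regulators followed. Igtp was 95.5, 101 and 87.7 RPKM with anti-PD-1 against 47.8, 31.1, 56.8 and 45.1 RPKM with vehicle, a log2 fold change of 1.08 (SE 0.21). Irgm2 was 40.0, 45.7 and 37.5 RPKM against at most 25.4 RPKM with vehicle, a log2 fold change of 1.04. Irgm1 was 56.2, 54.1 and 56.8 RPKM against at most 39.8 RPKM, a log2 fold change of 0.69. Each regulator was thus higher in all 3 anti-PD-1 samples than in any of the 4 vehicle samples.

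Gbp3 rose by less, being at 41.7 ± 6.02 RPKM with vehicle (n = 4) and at 65.6 ± 3.03 RPKM with anti-PD-1 (n = 3), higher by 0.65 on the log2 scale. Gbp7 was 43.8, 72.0 and 68.8 RPKM with anti-PD-1 against 40.3, 33.8, 46.1 and 40.6 RPKM, the only member whose groups overlapped, through the anti-PD-1 sample at 43.8 RPKM. Its log2 fold change was 0.58 (limma adjusted p = 0.0416), and that of Iigp1, at 35.6, 51.5 and 48.5 RPKM against 21.8, 14.4, 31.2 and 28.0 RPKM, was 0.93 (limma adjusted p = 0.0481). These calls were near the threshold and depended on single samples: without the second anti-PD-1 sample the limma adjusted p was 0.174 for Gbp7 and 0.153 for Iigp1, without the third 0.136 and 0.118, without the second vehicle sample 0.104 and 0.124, without the first 0.0769 and 0.0945, and without the fourth 0.0716 and 0.0553. Iigp1 also lost its call, with adjusted p up to 0.0606, when the first anti-PD-1 sample, the first 7aaRGD sample, the fourth 7aaRGD sample or any combination sample was left out of the fit, and Gbp7, with adjusted p up to 0.0517, without the first combination sample or the third.

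In all, 9 of 9 members passed as higher with anti-PD-1 (7 to 9 over 23 other settings), while 10.8% of all genes tested were higher and 12.2% lower. For 8 of 9 members the groups did not overlap, which held for 15.4% of all genes in that direction. The members' median log2 fold change was 0.93 and that of all genes was -0.01.

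With 7aaRGD and anti-PD-1 together, all 9 members were higher than with vehicle and higher than with 7aaRGD alone. Gbp2 was 461, 261 and 462 RPKM and Gbp5 was 66.5, 45.3 and 65.5 RPKM, log2 fold changes against vehicle of 1.53 and 1.71 (SE 0.21 and 0.19). Igtp was 148, 108 and 145 RPKM, Irgm2 was 60.9, 56.9 and 55.8 RPKM and Iigp1 was 61.4, 53.5 and 58.5 RPKM, log2 fold changes of 1.56, 1.52 and 1.29. The second combination sample was the lowest of its group for 8 of 9 members, and even so lay above every vehicle sample. The log2 fold changes of Gbp3, Gbp4, Gbp7 and Irgm1 were 0.72, 1.25, 0.71 and 0.86.

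Against vehicle, 9 of 9 members passed as higher (limma adjusted p between 1.8e-05 and 0.00822), where 17.5% of all genes were higher and 25.7% lower, and for 9 of 9 the groups did not overlap, as for 20.0% of all genes. Against 7aaRGD alone, 9 of 9 passed too (log2 fold changes of 0.73 to 1.66), where 13.0% of all genes were higher and 23.5% lower, and the groups were separate for 9 of 9, as for 14.5% of all genes. Both comparisons and that of anti-PD-1 with vehicle share samples, so they are not separate lines of evidence. All 9 calls were kept in both under each of the 23 other settings.

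Whether the combination differed from anti-PD-1 alone was tested directly. All 9 members were higher on average with the combination, by 0.07 (Gbp3) to 0.49 (Irgm2) on the log2 scale, and 0 of 9 passed the threshold, as did 0.0205% of all genes in each direction. At an unadjusted limma p under 0.05 there was 1 member, Igtp (log2 difference 0.48, 95% interval 0.01 to 0.96, adjusted p = 0.32, higher in 3 of 3 samples), where 386 of all 9740 genes were higher and 1074 lower. For Igtp, Irgm2 and Iigp1 the groups did not overlap, 3 of 9 members against 6.23% of all genes. The 95% intervals of the other 8 members all held 0, and over the 9 members the bounds reached from -0.36 to 1.09.

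The interaction, by which the difference made by 7aaRGD on top of anti-PD-1 exceeds that made by 7aaRGD alone, was positive for 9 of 9 members (0.10 for Irgm1 to 0.49 for Iigp1 on the log2 scale). Of the 9, 0 passed the limma threshold and 0 had an unadjusted p under 0.05, and 0% of all genes passed in either direction (225 and 569 at an unadjusted p under 0.05). The intervals over the members reached from -0.47 to 1.45.

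**Figure D4:**
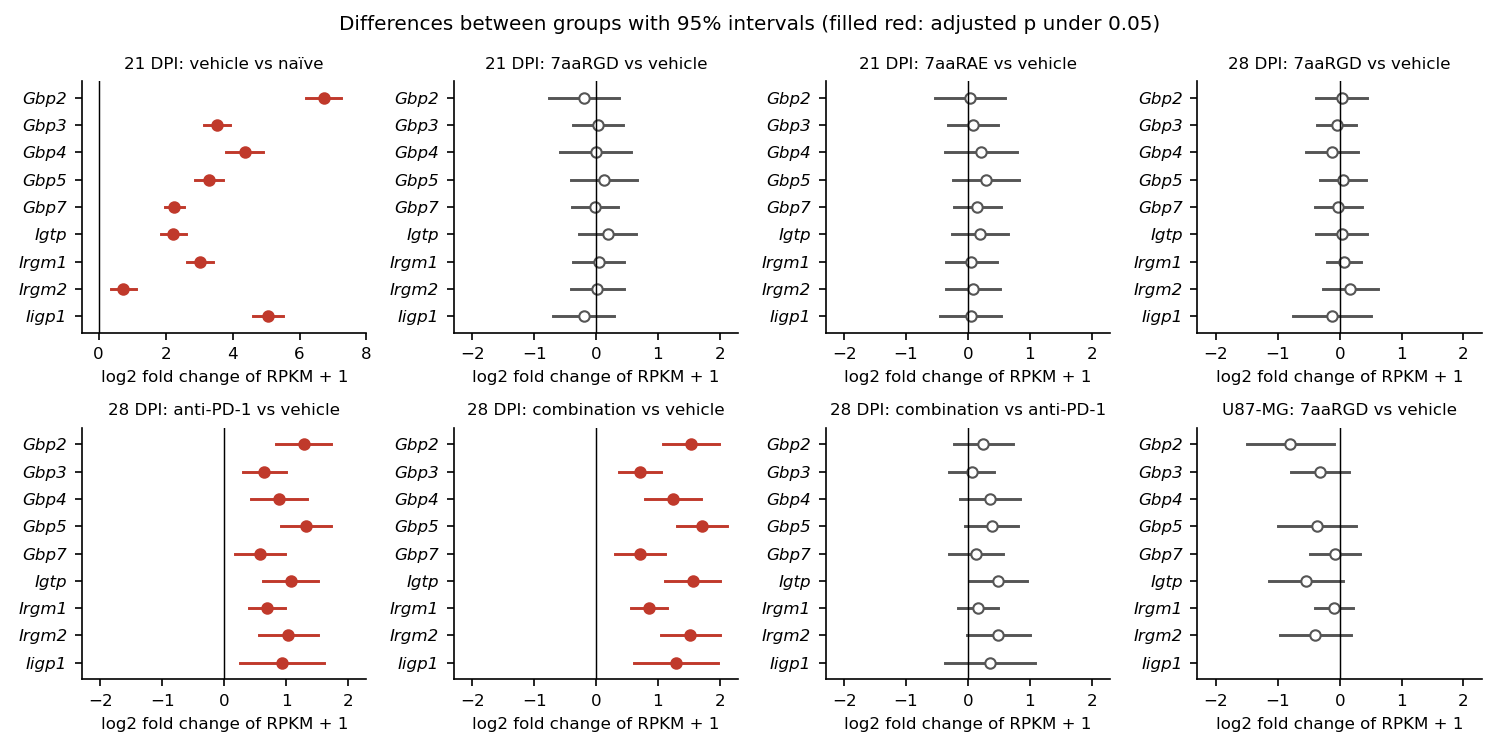
Log2 fold change of RPKM + 1 of each GTPase (x axis) in 8 comparisons, with bars for the 95% interval from limma and filled red points where the adjusted p was under 0.05. All 9 points are red against naïve mice, with anti-PD-1 and with the combination, and none is in the comparisons of a peptide with vehicle or of the combination with anti-PD-1; Gbp4 and Iigp1 were too low in the U87-MG table to be tested.

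Of 9 genes of IFN-γ signalling, 5 were higher and 1 lower with anti-PD-1, and 6 higher and 1 lower with the combination. Irf1 was 54.7 ± 14.4 RPKM with vehicle (n = 4), 116 ± 13.4 with anti-PD-1 and 144 ± 31.1 with the combination (n = 3 each), log2 fold changes of 1.11 and 1.39 against vehicle. Socs1, a feedback inhibitor of JAK kinases, was higher in both groups (1.08 and 1.35), and Ifngr1, a chain of the IFN-γ receptor, was lower, from 181 ± 21.9 RPKM with vehicle to 113 ± 4.67 RPKM with anti-PD-1. Of other GBP and IRG genes 9 of 13 were higher with anti-PD-1 (median log2 fold change 0.67, Tgtp1 and Tgtp2 at 1.26 and 1.21) and 13 of 13 with the combination (median 0.94). Of other IFN-γ targets 12 of 15 and 13 of 15 were higher, led by Nos2, the inducible nitric oxide synthase (3.61 ± 0.993 RPKM with vehicle and 54.7 ± 12.1 RPKM with the combination, a log2 fold change of 3.60), and of type I interferon response genes 13 of 15 and 13 of 15.

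Of the 14 partners at vacuoles and inflammasomes, 2 were higher and 2 lower with anti-PD-1, where 10.8% of all genes were higher and 12.2% lower. With the combination 3 were higher and 5 lower, where 17.5% of all genes were higher and 25.7% lower. Casp4, which senses bacterial lipopolysaccharide, was higher in both (log2 fold changes of 0.47 and 0.59), and Map1lc3a, an autophagy protein of the LC3 family, was lower in both (-0.70 and -0.80). In none of the 5 lists did a gene pass in a comparison of a peptide with vehicle, of the peptides with each other, or of the combination with anti-PD-1.

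Other cells in the sort moved with the treatment at 28 DPI, and not in every sample. The sum of 6 NK cell markers was between 1.81 and 8.07 RPKM with vehicle, 35.3, 46.0 and 1.53 RPKM with anti-PD-1 and 17.2, 60.8 and 56.4 RPKM with the combination. Ifng was between 0.0115 and 0.112 RPKM with vehicle, 1.01, 1.87 and 0.00213 RPKM with anti-PD-1 and 1.93, 0.627 and 1.38 RPKM with the combination. The third anti-PD-1 sample was thus not above the vehicle samples in either, with an Ifng value too near 0 to be ranked, and its GTPase sum of 783 RPKM was the highest of its group, the other 2 being at 711 and 762 RPKM. The combination sample with the lowest GTPase sum (714 RPKM, against 1042 and 1035 RPKM) had the lowest Ifng and the highest NK marker sum of its group.

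The sum of the 7 monocyte and macrophage markers was between 103 and 152 RPKM with vehicle, between 323 and 353 RPKM with anti-PD-1 and between 371 and 507 RPKM with the combination, and 4 of 7 were higher in each. Of 6 dendritic cell markers 2 could be tested, and of 4 endothelial markers 2, and all of these were higher in each too. The dendritic cell sum was 17.6, 7.95 and 3.67 RPKM with anti-PD-1 and between 1.47 and 3.69 RPKM with vehicle. The third anti-PD-1 sample thus lay within the vehicle range. NK markers were higher in 0 of 4 with anti-PD-1 and 3 of 4 with the combination, and microglia markers in 1 of 7 and 4 of 7. T cell markers were too low to be tested, with sums between 1.45 and 2.68 RPKM with vehicle, between 1.499 and 6.05 RPKM with anti-PD-1 and between 4.09 and 7.92 RPKM with the combination. The part of these cells in the difference of the GTPases was not tested.

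**Figure D5:**
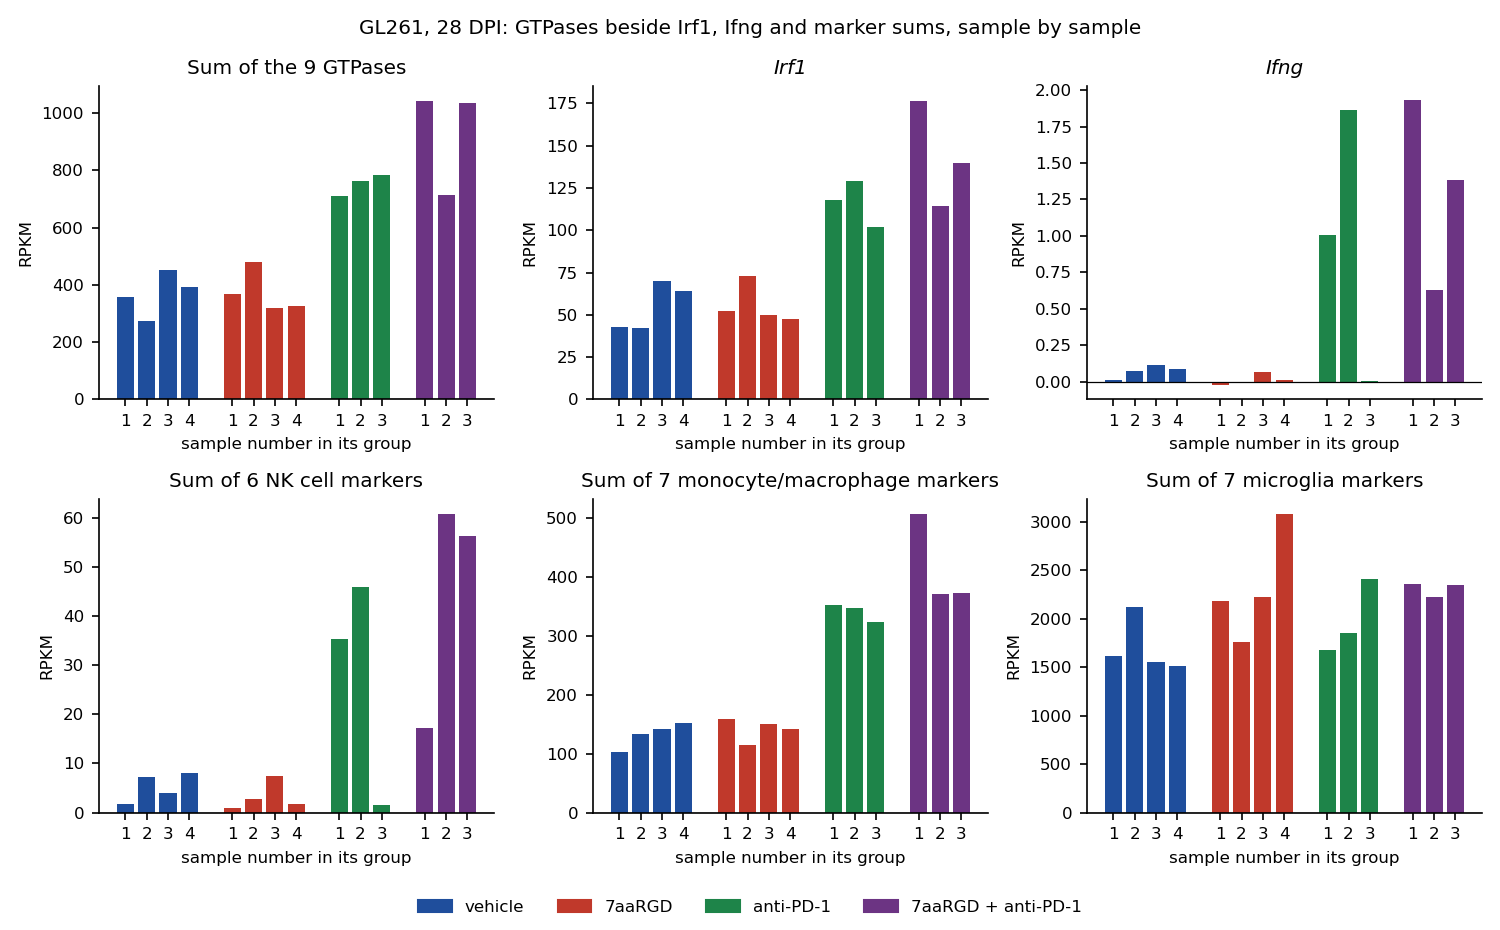
Summed level of the 9 GTPases, Irf1, Ifng and the summed NK cell, monocyte/macrophage and microglia markers (RPKM, y axes) in each 28 DPI sample, with 1 bar per sample numbered within its group and the 4 groups by color. The third anti-PD-1 sample has Ifng and NK markers no higher than vehicle and a GTPase sum of 783 RPKM, above every vehicle sample.

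In the U87-MG gliomas of nude mice the GTPases were low, and the peptides were compared with vehicle there as well. The members' sum with vehicle was 84.5 RPKM, and Igtp, not Gbp2, was the highest, at 20.9, 21.2 and 20.3 RPKM. Gbp2 was 15.3, 12.9 and 14.0 RPKM with vehicle, 12.4, 5.71 and 6.18 RPKM with 7aaRGD and 15.7, 6.52 and 10.2 RPKM with 7aaRAE. Iigp1 was 1.12, 1.15 and 0.828 RPKM with vehicle, 0.747, 0.278 and 0.267 RPKM with 7aaRGD and 2.06, 0.157 and 0.487 RPKM with 7aaRAE. Gbp4 was listed at 0.316 RPKM or less in every sample, and it and Iigp1 did not reach a mean of 1 RPKM and were not tested.

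With 7aaRGD, 7 of 7 members tested were lower on average than with vehicle, and 0 passed the limma threshold, as did 0% of the 9668 genes tested. At an unadjusted p under 0.05 there was 1, Gbp2, with a log2 difference of -0.80 (95% interval -1.50 to -0.09, limma adjusted p = 0.941, lower in 3 of 3 samples), where 138 of all genes were higher and 227 lower. Among the 7 members tested, the groups did not overlap for Gbp2 and Igtp (19.8, 10.6 and 12.8 RPKM with 7aaRGD), against 6.39% of all genes tested in that direction. For Iigp1, which was too low to be tested, the groups did not overlap either. The median difference of -0.37 stayed negative, between -0.55 and -0.23, when 1 sample at a time was left out.

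With 7aaRAE, 5 members were lower and 2 higher on average than with vehicle, the groups overlapped for all, and 0 passed (0 at an unadjusted limma p under 0.05), against 0.0103% of all genes higher and 0% lower. The 95% intervals reached from -1.13 to 0.62. Between the peptides 7 of 7 were lower with 7aaRGD, 0 passed at either threshold, and 0% of all genes passed (173 higher and 154 lower at an unadjusted p under 0.05). The intervals over the members reached from -1.08 to 0.55, and the median of -0.15 ranged from -0.40 to 0.04 when 1 sample at a time was left out.

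The first 7aaRGD and the first 7aaRAE sample were the highest of their groups for 9 of 9 members, with sums of 82.0 and 103.2 RPKM against 53.3 to 70.0 RPKM in the other 4. Microglia markers summed to between 6383 and 10321 RPKM over this table, and NK markers to between 6.50 and 17.4 RPKM with vehicle, 1.20 and 5.91 RPKM with 7aaRGD and 0.140 and 1.66 RPKM with 7aaRAE, and their part in these values was not tested. Pairs of the 7 tested members correlated between 0.10 (Irgm2 with Gbp7) and 0.96 (Igtp with Gbp2) over the 9 samples, a wider range than the 0.86 to 0.99 over the 14 samples of 28 DPI. The 28 DPI range covers all 9 members, which were higher with anti-PD-1 than with vehicle, so the ranges are not like for like.

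The genes whose pattern was most like that of the members were sought by the Pearson correlation with the members' mean log2(RPKM + 1) over the tumor-bearing samples of each table (9, 14 and 9 samples, 8907 genes). Ranked by the lowest of the 3 values, the genes given here among the first 10 were Parp10 (0.85), Pfkl (0.84), Trim21 (0.84), Tap1 (0.84), Hk3 (0.82), Fgl2 (0.81), Oasl2 (0.80), Tpi1 (0.79) and Irf1 (0.79). Irf1 reached 0.97 at 21 DPI, 0.97 at 28 DPI and 0.79 with U87-MG. The samples of a table share their treatment groups and cell mix, and a value as high as that of the tenth gene in a single table was common: 158, 666 and 529 genes reached it.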

How the data were processed

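RNA of CD11b+ cells from 35 samples in 3 tables was analysed. Reads had been trimmed (Trimmomatic), aligned to mm10 (STAR), marked for duplicates (Picard) and counted by strand with HTSeq-count 0.11.1, and the study's own tests used NOISeq. The values the authors deposited are called normalized counts, but rows without signal hold exactly 2 and the values fit RPKM plus that constant, so 2 was subtracted. How they were normalized is not given in the sources used here. Of the values in rows with signal, 12.6% to 14.0% lay under the constant (down to -0.422 RPKM after subtraction), and the depth behind each value is unknown, so no counting interval is given.

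Gene names were matched to GENCODE and RefSeq for 53903 of 54513 rows (98.9%), of which 21907 are protein-coding. Protein-coding genes whose mean over the samples fitted reached 1 RPKM were tested on log2(RPKM + 1) with limma (version 3.58.1, R 4.3.3), and p was adjusted by Benjamini-Hochberg over all of them at a threshold of 0.05. A fold change on this scale understates the change of low genes. At 21 DPI the naïve and vehicle groups were fitted on their own and the 3 tumor-bearing groups together, and in the other tables all groups. The fit was tested on simulated data. Descriptions used Python 3.11.15 with numpy 2.4.6, pandas 2.3.3 and matplotlib 3.10.9.

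The 9 members, the 5 lists of related genes and the marker lists were chosen with earlier results of these data known. All members are named; of a list, at most the 4 genes with the largest change among those past the threshold, or the 2 with the smallest p; and for likeness the 10 genes with the highest of the lowest correlations over 3 tables. Some results that meet this rule are not reported here. The labels call the replicates biological. Of the pairs of same-numbered tumor-bearing samples, 1 of 9 at 21 DPI and 3 of 19 at 28 DPI correlated over 0.1. The correlations ran from -0.77 to 0.12 at 21 DPI and from -0.50 to 0.37 at 28 DPI. No block was used in the main fits. Such a check cannot find a shared deviation if the values had been adjusted for it before deposit, which is unknown. Alternatives were another pseudocount, filter, scaling, gene set or set of groups, a block for the replicate number, omission of each sample and, chosen after seeing the data, 1 residual degree of freedom less, because the differences between replicates spanned 7 of 8 dimensions at 21 DPI and 9 of 10 at 28 DPI.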

Additional observations from a re-analysis of the deposited data

Results flagged for a closer look

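Gbp4 in the 28 DPI 7aaRGD group had 1 sample far above the others, the second, at 14.4 RPKM against 9.49, 9.26 and 8.75 RPKM. Its gap to the next sample was 0.868 of the group's range, above Dixon's 95% critical value for 4 samples. Of the 18 groups of 4 samples looked at (9 genes in 2 groups), 1 stood out in this way, and chance alone picks about 1 in 20. None of the 9 interactions at 28 DPI passed its test.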

How the results depend on the processing

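Counting each member under each alternative, a call past the threshold was lost in 27 cases and turned direction in 0. All 27 concerned anti-PD-1 against vehicle, where Gbp7 lost its call in 11 of 23 alternatives and Iigp1 in 16 of 23. Over these alternatives limma's adjusted p ran from 0.00947 to 0.174 for Gbp7 and from 0.0184 to 0.153 for Iigp1. With the replicate number as a block these were 0.109 and 0.106, and the block changed no other call of a member. The other 7 members kept their calls there, and all 9 did in the comparisons of vehicle with naïve mice and of the combination with vehicle and with 7aaRGD. The median log2 fold change of the members against naïve mice was 2.59 with 5 RPKM added in place of 1, and that of 7aaRAE against vehicle in U87-MG ran from -0.57 to 0.043 when single samples were left out. For U87-MG no such block could be fitted, because the columns carry no replicate numbers.

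Counts over all genes moved more. Genes past the threshold numbered 14 with 7aaRGD against vehicle at 21 DPI (0 to 125 over the alternatives), 63 at 28 DPI (0 to 93), 4 between the combination and anti-PD-1 (0 to 26), 1 with 7aaRAE in U87-MG (0 to 32), 8062 against naïve mice (5289 to 9947) and 2246 with anti-PD-1 (1358 to 2411). The cause was not tested. Depth is unknown, so low values such as those of Gbp4 in naïve mice carry no counting error.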
